A study of Caenorhabditis elegans with 3 samples.

Results

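Between the reproducible binding sites of a transcription factor and the long tail of a peak list lie regions whose standing is unclear. The regions described here hold that place in a ChIP-seq experiment on MML-1 in Caenorhabditis elegans. They are the 305 regions that follow the 195 reproducible peaks, down to rank 500, in a pooled list of 30000 ordered by signal, less 1 that overlapped a reproducible peak, which left 304. They were selected on the signal that the authors deposited for each region of the pooled list, and the 195 reproducible peaks hold the ranks above them. Signal, pooled rank and the absence of overlap therefore chose the regions and are given only as a description. The remaining 29493 pooled regions that overlap no reproducible peak are called lower regions below.

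MML-1 is a Mondo family protein with a basic helix-loop-helix leucine zipper. Its partner is MXL-2, a protein like Max, and its mammalian relatives MondoA and ChREBP bind with Mlx and regulate genes of sugar and fat metabolism. Proteins of this class recognise the E-box, a hexamer of the form CANNTG, and the canonical form for the Myc, Max and Mondo network is CACGTG. In the worm, MML-1 and MXL-2 are known for roles in longevity, autophagy and cell migration.

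The single group was strain OP198, with the genotype unc-119(ed3) III and the integrated transgene wgIs198. All samples thus carried the unc-119 mutation and the transgene, which expresses MML-1 with a C-terminal GFP-FLAG tag that the labels elsewhere call eGFP. Whole larvae of mixed sex were taken at stage L3, and their age is given as unknown. The labels call the 3 samples biological replicates. For replicates 1 and 2 the labels give a size range between 150 and 350 and worms from a stock centre, whereas replicate 3 was sonicated with a microtip and came from the submitting laboratory. Replicate 3 differs from the others in those labels, so its source, its fragmentation and its replicate number cannot be told apart. Whole animals pool all tissues, and the tagged protein came from a transgene, whose copies of the mml-1 locus add to the native locus. Depth is unknown, because no read totals come with the lists. The 95% exact Clopper-Pearson intervals and the Fisher's exact tests below are over regions, not animals, and cover the number of regions only.

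The signal of the 304 regions ran from 25.84 to 17.89, with a median of 20.19, and all were 284 bp wide. The reproducible peaks ranged from 841.7 down to 26.01, and the lowest region of the pooled list had 6.015. The step across the upper border was small. The last 5 reproducible peaks, at pbrm-1, hif-1, F26F12.3, CC8.2 and T07E3.3, had signals of 26.08, 26.07, 26.07, 26.01 and 26.01. The first 5 regions under them, at eef-1A.2, inft-2, nhr-32, nars-1 and crh-2, had 25.84, 25.78, 25.75, 25.70 and 25.68. At the lower border, ztf-3, ZC506.1, C14B9.3, col-181 and F26A3.4 had 17.95, 17.92, 17.90, 17.89 and 17.89, and the next 5 regions, at sid-5, M04F3.4, aexr-2, gln-3 and lin-14, ran from 17.88 to 17.85. The authors' −log10 q-value was at 2.746, the value shared by the reproducible peaks, in 84 of the 304, down to rank 279. The lowest value was 2.011.

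Sites from the regions of high rank are shown first, because their sequences are the evidence on which the E-box counts rest. Each line gives 40 bases of the plus strand in ce11, with the hexamer in capitals. The first 11 lie in promoter windows, which span 1000 bp before and 200 bp after the start of a protein-coding transcript. The next 8 lie outside such windows, and the gene is the nearest start. The last 3 are regions without CACGTG that hold the variant CACATG, printed as CATGTG where it lies on the minus strand. Within each set the sites are in order of pooled rank from the top, and some sites of similar rank are not shown.
nhr-32 chrX:13251602-13251641: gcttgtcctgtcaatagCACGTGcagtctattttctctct
egl-4 chrIV:1857941-1857980: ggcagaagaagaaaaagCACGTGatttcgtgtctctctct
skr-16 chrIV:7168488-7168527: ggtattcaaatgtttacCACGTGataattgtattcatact
mxl-3 chrX:13351451-13351490: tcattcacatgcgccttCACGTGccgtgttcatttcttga
ret-1 chrV:14831616-14831655: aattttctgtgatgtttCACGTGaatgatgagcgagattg
F08F8.10 chrIII:7357501-7357540: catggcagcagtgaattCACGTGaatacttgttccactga
sqv-8 chrII:9647320-9647359: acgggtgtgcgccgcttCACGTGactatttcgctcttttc
xpo-1 chrV:7804656-7804695: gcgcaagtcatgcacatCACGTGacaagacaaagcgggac
pdtf-1 chrIV:8432990-8433029: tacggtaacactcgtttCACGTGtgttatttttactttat
ulp-4 chrII:8129215-8129254: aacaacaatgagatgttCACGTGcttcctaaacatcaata
gpdh-2 chrIII:9858542-9858581: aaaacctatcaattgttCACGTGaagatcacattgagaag
sca-1 chrIII:10819952-10819991: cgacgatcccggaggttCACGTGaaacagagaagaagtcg
swt-1 chrIV:304183-304222: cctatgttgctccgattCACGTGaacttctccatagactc
mdl-1 chrX:6739310-6739349: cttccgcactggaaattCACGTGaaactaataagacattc
F40H3.2 chrII:6176531-6176570: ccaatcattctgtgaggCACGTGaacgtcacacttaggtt
ldb-1 chrX:11031822-11031861: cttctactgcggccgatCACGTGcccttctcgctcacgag
sea-2 chrII:3958931-3958970: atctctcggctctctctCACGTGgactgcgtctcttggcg
C30G4.4 chrX:17064063-17064102: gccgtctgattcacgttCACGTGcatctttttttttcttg
sma-9 chrX:10771055-10771094: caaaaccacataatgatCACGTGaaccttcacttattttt
inft-2 chrV:13003624-13003663: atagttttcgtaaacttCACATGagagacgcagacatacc
crh-2 chrII:5182606-5182645: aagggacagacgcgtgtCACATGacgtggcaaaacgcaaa
smk-1 chrV:8609879-8609918: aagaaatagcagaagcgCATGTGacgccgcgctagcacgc

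The canonical E-box was asked for first, since it does not enter the choice of regions. A total of 72 of the 304 regions held CACGTG no more than 100 bp from the summit, or 23.7% (95% interval 19.02 to 28.87). Among lower regions the share was 4.11%, or 1211 of 29493. The share below the reproducible set was the larger, with an odds ratio of 7.25 (Fisher's exact test, here and below two-sided, with a Benjamini-Hochberg adjusted p of 4.17e-32 over 9 share tests). It was also smaller than the 59.5% of the reproducible peaks, with an odds ratio of 0.211 (adjusted Fisher's exact p = 4.22e-15). In 65 of the 72 regions the hexamer occurred once, and in 7 it occurred more often. A pair of CACGTG sites 5 bp apart, present in 4 reproducible peaks and 2 lower regions, was found in 0 of the 304.

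The E-box share fell along the rank range. It was 42.6% (30.04 to 55.94) in the first 61 regions, down to rank 256, beside 47.7% (35.1 to 60.5) in the last 65 reproducible peaks. It was then 26.7%, 22.9% and 18.03% in the next bins, and 8.20% (2.71 to 18.1) at ranks 440 to 500, beside 8.80% from there to rank 1000 and 3.90% beyond rank 5000. The upper ranks, down to rank 348, held CACGTG in 53 of 152 regions and the lower ranks, down to rank 500, in 19 of 152, or 34.9% against 12.5%. Rank chose the regions, so this fall is a description with no test. The first of these regions thus had a share whose interval overlapped that of the last reproducible peaks, and the lowest ranks one whose interval overlapped that of the regions below them.

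**Figure D1:**
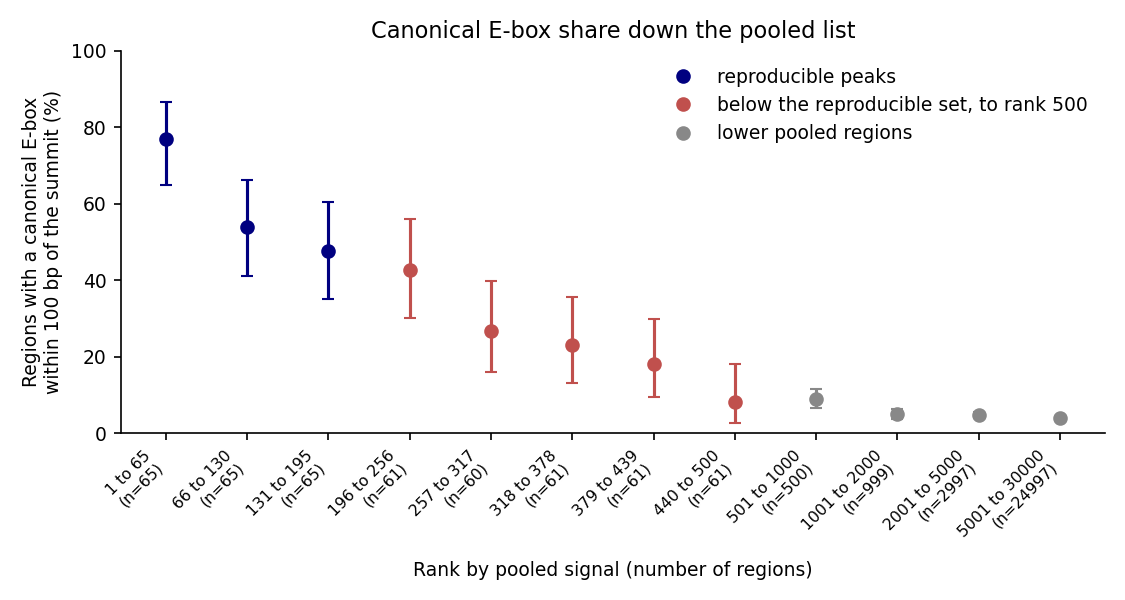
Share of pooled regions with a canonical E-box within 100 bp of the summit (y axis, percent) in bins of rank by pooled signal (x axis), with 95% exact intervals as bars. The points of the regions described here go down from 42.6% to 8.20%, between the reproducible peaks and the lower regions.

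The variant CACATG was present in 68 regions, or 22.4%, against 7.66% of lower regions (odds ratio 3.47, adjusted Fisher's exact p = 8.44e-15 over 10 CANNTG hexamers). Its share was 24.6% in the first 61 regions and 23.0% in the last 61, beside 11.4% from rank 500 to rank 1000. Both hexamers occurred together in 20 regions, CACATG without CACGTG in 48, and neither in 184. Neither hexamer was found in 60.5% of the 304, against 23.1% of reproducible peaks and 88.6% of lower regions. CAGCTG stood at 8.22% against 4.55% (adjusted Fisher's exact p = 0.0175), past the threshold of 0.05, but it passed in only 4 of 10 alternatives, with adjusted Fisher's exact p from 0.00744 to 0.62. It did not pass with windows of 50 or 150 bp, or with the range ended at rank 350 or 1000. Nor did it pass when only regions among the first 1000 of replicates 1 or 3 (6.76%), or of replicates 1 or 2 (6.57%), were kept. CAAATG stood at 13.2% against 18.3% and did not pass (adjusted Fisher's exact p = 0.0512).

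Where CACGTG was present, it lay near the summit. The centre of the nearest site was a median of 24.5 bp away, beside 12 bp in reproducible peaks and 44.5 bp in lower regions. It was within 25 bp in 36 of 72 regions, or 50%, against 27.6% of the lower regions that held the hexamer (odds ratio 2.63, adjusted Fisher's exact p = 0.00024). At ret-1 the site centre was 10.5 bp from the summit, at swt-1 2.5 bp, and at nhr-32 51.5 bp.

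**Figure D2:**
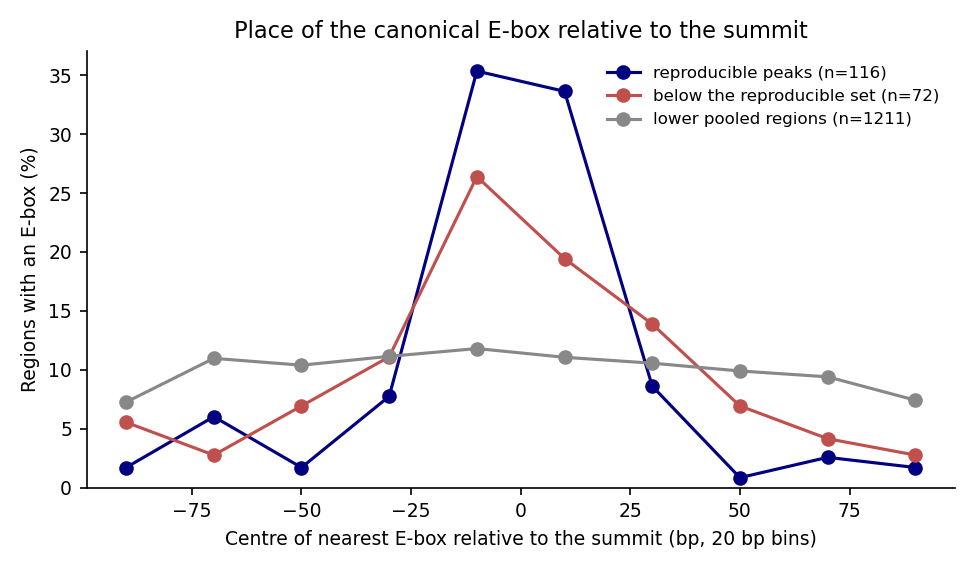
Place of the nearest canonical E-box relative to the summit (x axis, 20 bp bins) among regions that hold the E-box (y axis, percent of such regions). Of the 72 regions below the reproducible set, 26.4% and 19.4% had it in the bins on either side of the summit, where lower regions had 11.8% and 11.1%.

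The bases next to the E-box were counted over all 72 nearest sites. Read outwards from the core on both strands, T took 44.4% of the flanking positions of the 72 regions, 48.3% of those in reproducible peaks and 25.7% of those in lower regions. The octamer TCACGTGA, the same on both strands, made up 16 of the 72 nearest sites, or 22.2%, against 107 of 1211 lower sites, or 8.84% (odds ratio 2.95, adjusted Fisher's exact p = 0.00153 over 8 tests added after the data were seen). The form CCACGTGG was found at 5 of the 72, or 6.94%, and at 15.4% of lower sites.

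Replicates ranked these regions unevenly. A region counted as high in a replicate when a summit among that list's first 1000 lay within 200 bp. By this measure replicate 1 ranked 149 of the 304 high, replicate 2 ranked 82 and replicate 3 ranked 115. Whole lists differed in length, with 30000 regions for replicate 1, 30000 for replicate 2 and 27021 for replicate 3. A share of lower regions high in each single replicate is not given here, so these 3 counts have no base. Of the 304, 44 were high in 0 replicates, 178 in 1, 78 in 2 and 4 in 3. Thus 82 were high in at least 2, against 0.166% of lower regions. Replicates 1 and 2 were both high in 33 regions, replicates 1 and 3 in 42, and replicates 2 and 3 in 15. Since the pooled signal is built from the same libraries, these counts describe the regions and carry no test.

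The 4 regions high in every replicate lay near crh-2, F45E1.4, W05H9.4 and spc-1. The crh-2 region, in an intron of a CREB-like transcription factor gene and 1476 bp upstream of its nearest transcript start, was the most even, with ranks of 249, 268 and 195 in replicates 1, 2 and 3. Its sequence holds CACATG and no CACGTG. F45E1.4 had ranks of 517, 587 and 114 in an intron, and spc-1, which encodes alpha-spectrin, had 497, 254 and 821 at 716 bp upstream. Of these 4, the region 7795 bp upstream of W05H9.4 was the one with CACGTG, 91.5 bp from the summit, at ranks of 968, 753 and 172. Which regions count as high in every replicate depends on the settings: with summits matched within 100 bp only W05H9.4 of the 4 was still high in 3, and with the first 500 of each replicate only crh-2 was.

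E-box regions were split by replicate as a description, with no test, because a high rank in a replicate helps to bring a region into the pooled range. Of the 115 high in replicate 3, 45 held CACGTG, or 39.1% (30.2 to 48.7), against 27 of the 189 others, or 14.3% (9.63 to 20.1). For replicate 2 the order was the other way, with 14.6% of 82 against 27.03% of 222. For replicate 1 the shares were 21.5% and 25.8%. Among E-box regions median ranks were 1385, 6144.5 and 251 in replicates 1, 2 and 3, and 44 of the 72 had their best rank in replicate 3. Support by at least 2 replicates, whichever they were, went with 29.3% (19.74 to 40.35) against 21.6% (16.39 to 27.62), and these intervals overlap.

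The same split was made within the rank range. Down to rank 348, 37 of 72 regions high in replicate 3 held CACGTG, or 51.4%, against 16 of 80 others, or 20%. At the lower ranks the shares were 18.6% and 10.1%. Regions high in replicate 3 alone held it in 27 of 62, or 43.5%, those high in replicates 1 and 3 in 15 of 38, or 39.5%, those high in replicate 1 alone in 10 of 78, or 12.8%, and those high in replicate 2 alone in 3 of 38, or 7.89%. Whether the source or fragmentation of replicate 3 had a part in this was not tested.

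**Figure D3:**
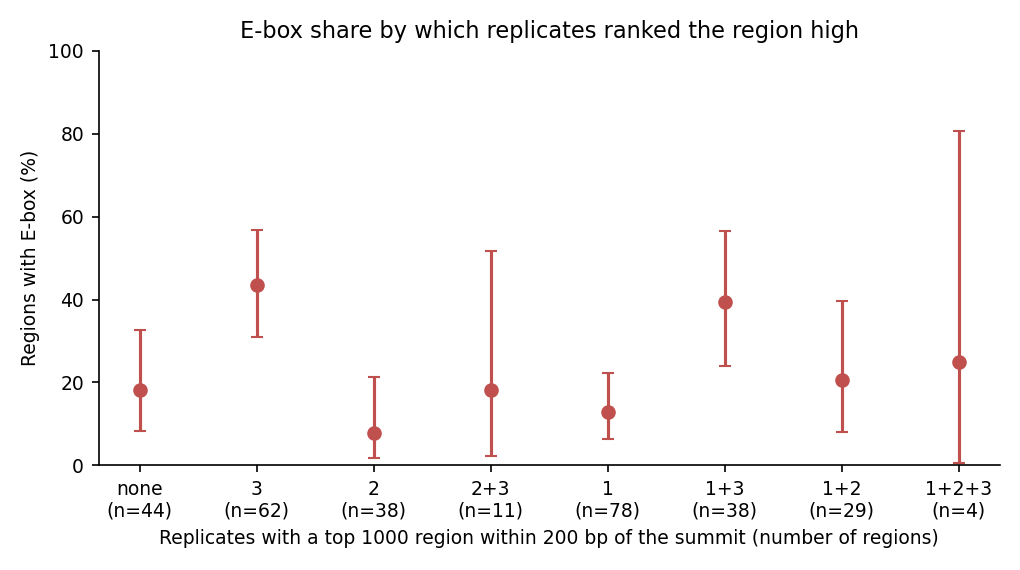
Share of the 304 regions with a canonical E-box (y axis, percent, with 95% exact intervals as bars) by the replicates in which the region was high (x axis). The points for replicate 3 alone, at 43.5%, and for replicates 1 and 3, at 39.5%, lie above those for replicate 1 alone, at 12.8%, and replicate 2 alone, at 7.89%.

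Each replicate was also read over the same ranks of its own list, again without regions that overlap a reproducible peak. CACGTG was present in 27 of 281 regions of replicate 1, or 9.61%, in 13 of 288 of replicate 2, or 4.51%, and in 50 of 280 of replicate 3, or 17.9%. The shares below rank 500 of the same lists were 3.89%, 3.88% and 4.36%. The replicates gave 10.7% ± 6.73 against 4.04% ± 0.274 (SD, n = 3), with the difference in the same direction in 3 of 3 (exact paired permutation test, two-sided p = 0.25, the smallest that 3 replicates allow). Without replicate 3 the mean of the shares was 7.06%. Within a replicate, the difference over regions passed for replicates 1 and 3 and not for replicate 2 (unadjusted Fisher's exact p = 3.26e-05, 5.71e-17 and 0.539).

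Genes are described next, first those with the E-box in a promoter window. Of the 304 summits, 133 lay in such a window, or 43.8% (38.1 to 49.5), against 29.2% of lower regions (odds ratio 1.89, adjusted Fisher's exact p = 1.9e-07 over the 9 share tests). In reproducible peaks the share was 47.2% (odds ratio 0.871, adjusted Fisher's exact p = 0.462). In the window, the median distance to the transcript start was 307 bp, and 122 of the 133 summits were upstream of it. Since the window spans 1000 bp upstream and only 200 bp downstream, it favours upstream summits. No such count is given for lower regions. The windows belonged to 152 genes, which is 1.91% of the 7975 genes with any pooled summit in the window. A reproducible peak was in the window of 14 of them and not in that of the other 138. Of the 7975 genes, 96 had a reproducible peak in the window, so most genes lack one. CACGTG was found in 27 of the 133, or 20.3%, and in 45 of the 171 outside windows, or 26.3%, a difference that did not pass (odds ratio 0.713, adjusted Fisher's exact p = 0.311).

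The 27 promoter regions with CACGTG gave 30 genes, 26 of them with no reproducible peak in the window. Among the 7975 genes with any pooled summit there, 96 had such a peak, so its absence does not set these genes apart. Replicate 3 ranked 21 of the 27 high, replicate 1 ranked 9 high and replicate 2 ranked 3 high. The region of best rank was at nhr-32, a nuclear hormone receptor gene, 394 bp upstream on chromosome X with a pooled signal of 25.75. Replicate 1 gave it a signal of 15.24, replicate 2 of 3.113 and replicate 3 of 13.22, each on the scale of its own list, at ranks of 125, 22038 and 133. Replicates 1 and 3 were high here and replicate 2 was low. With summits matched within 100 bp, only 1 replicate was high.

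At egl-4, which encodes a cGMP-dependent protein kinase, the summit was 581 bp upstream of a transcript start at rank 202. It lay in an intron of the gene, with replicate ranks of 963, 2412 and 214. The site is 15.5 bp from the summit. The gene saeg-1, named as a suppressor of activated egl-4, also had a region with CACGTG, at rank 385 and 2110 bp upstream, with replicate ranks of 1385, 5414 and 2569. Replicate 3 ranked the egl-4 region high and the saeg-1 region lower, and replicate 2 put both below its first 1000.

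At skr-16, a Skp1-related gene, the region at rank 205 was 293 bp upstream and 1647 bp from a reproducible summit. Replicate 1 ranked it 181, replicate 2 5495 and replicate 3 4042, so it was high in replicate 1. F26A3.4 had a region 75 bp upstream at rank 213, with ranks of 198 and 129 in replicates 1 and 2 and no region within 200 bp in replicate 3. Its E-box centre was 0.5 bp from the summit, and a reproducible summit was 483 bp away.

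The promoter of mxl-3, a Max-like gene known from lipid and fasting responses, was at rank 220, 673 bp upstream and 363 bp from a reproducible summit, the smallest such distance among the 304. The signal was 4.814, 2.740 and 17.09 in replicates 1, 2 and 3, at ranks of 10608, 27538 and 86. Only in replicate 3 was this region high. With summits matched within 400 bp, which is farther than that reproducible summit, it was high in 3 replicates. A further region 1469 bp upstream of mxl-3 was at rank 418 and had no CACGTG.

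At ret-1, the reticulon gene, the summit was 25 bp upstream of a transcript start at rank 239, in an intron of the gene. It had ranks of 4983 and 124 in replicates 1 and 3 and no region in replicate 2. The nearest reproducible summit was 1035014 bp away. Another E-box region, at rank 269, lay 1306 bp upstream of a different ret-1 transcript start. Its summit was at chrV:14848719, more than 10 kb from this summit at chrV:14831646. At sqv-8, a glucuronyltransferase gene of glycosaminoglycan synthesis, the region lay in an intron of the gene. The rank was 250 and the replicate ranks were 195, 1718 and 1177. The uggt-2 region, at rank 271 and 565 bp upstream of a gene for a glycoprotein glucosyltransferase homologue, had replicate ranks of 1577, 12329 and 246. The region at erp-44.1, which encodes an ERp44-like thioredoxin domain protein, was in an intron of the gene. It was at rank 438, with ranks of 11267 and 145 in replicates 1 and 3.

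At pek-1, which encodes the PERK kinase of the unfolded protein response, a pair of regions lay in the window with no reproducible peak within 10 kb. The region 490 bp upstream at rank 388 had no CACGTG and replicate ranks of 522 and 995 in replicates 1 and 2. The region 63 bp upstream at rank 492 had CACGTG 1.5 bp from the summit and ranks of 22782, 12859 and 516. The E-box region was high in replicate 3, and the other region in replicates 1 and 2.

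At gpdh-2, a glycerol-3-phosphate dehydrogenase gene known for the osmotic response, the summit was 63 bp upstream of a transcript start at rank 296. It lay in an intron of the gene. The signals were 7.008, 4.757 and 10.71, at ranks of 2542 and 7076 in replicates 1 and 2 and within the first 200 of replicate 3. At pnk-1, a pantothenate kinase gene, the rank was 391 and the replicate ranks 25465, 6249 and 83. At dpyd-1, a dihydropyrimidine dehydrogenase gene, the rank was 347 and the replicate ranks 10599, 25267 and 164, with a reproducible summit 550 bp away. The region shared by xpo-1, the exportin gene, and uvs-1 was at rank 258, with replicate ranks of 5120, 3408 and 161. In these 4 regions replicate 3 was high and the other replicates were not.

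The remaining named E-box promoters were F08F8.10 at rank 240, T28F4.4 at rank 246 and the region shared by pdtf-1 and T26A8.4 at rank 274. F08F8.10 had replicate ranks of 312, 23396 and 219, and T28F4.4 had 8308, 14649 and 106. The pdtf-1 region had 391 in replicate 1 and 218 in replicate 3. Beside these, ulp-4, a SUMO protease gene, was at rank 284 with replicate ranks of 4351, 23528 and 391.

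**Figure D4:**
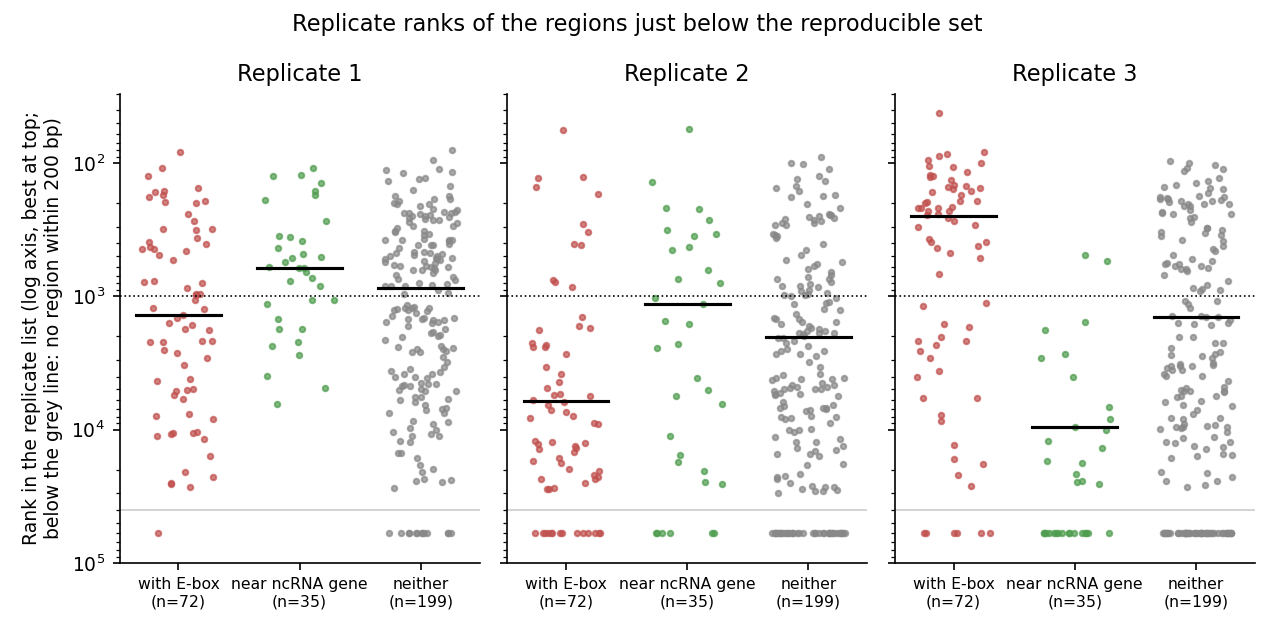
Rank in each replicate list (y axis, log scale, best at the top; points under the grey line have no region within 200 bp) of the regions with a canonical E-box, near a non-coding RNA gene, or with neither; 2 regions are in both of the first groups. Black bars are medians over regions with a rank, and the dotted line marks rank 1000; E-box regions have a median of 251 in replicate 3 and 6144.5 in replicate 2.

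Outside promoter windows, 45 regions held CACGTG and 21 of those were in introns. Over all 304, the summit lay between genes in 173, in an intron in 103, in a coding exon in 13, in a 5′ UTR in 10 and in a 3′ UTR in 5. The highest distal E-box region was 3094 bp upstream of sca-1, the gene of the calcium pump of the sarcoplasmic and endoplasmic reticulum, at rank 201, with replicate ranks of 491, 2318 and 371. At swt-1, a SWEET family sugar transporter gene, the region was 3305 bp upstream at rank 204, with ranks of 3295, 16296 and 126. The F40H3.2 region at rank 208 had 1454, 3826 and 150. In the last 2 regions replicate 3 alone was high, and at sca-1 replicates 1 and 3 were.

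At aakg-1, a gamma subunit gene of AMP-activated protein kinase, the region was 5332 bp upstream within an intron at rank 340, with replicate ranks of 2193, 12111 and 154. At bcat-1, a branched-chain aminotransferase gene, it was 4969 bp upstream at rank 270, with ranks of 271, 27792 and 99. At acly-1, an ATP citrate lyase gene, it was 1357 bp upstream at rank 397, with ranks of 5024, 28140 and 471 and a reproducible summit 1619 bp away. Each of these was high in replicate 3, and replicate 2 ranked none of the 3 among its first 1000. A distance to the nearest start does not show which gene a region acts on.

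The gene lists were described by counts of genes with a summit in the promoter window. They are to be read beside the 1.91% of the 7975 genes with any pooled summit there. Of 24 lists, 8 had a gene with one of the 304 regions in its window and 16 had none. In the Myc, Mondo and Max network these were mxl-3 and mml-1, of 4 genes with any pooled summit in the window. The mml-1 region, at rank 491 and 38 bp downstream of the start in a coding exon, had no CACGTG and had ranks of 1990 and 661 in replicates 1 and 2. It was 991 bp from a reproducible summit. The transgene adds copies of this locus, and their part in the region's signal was not tested. The F08F8.10 region above lies 17.1 kb from it, and the extent of the transgene's DNA is not given in the sources used here.

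Among nuclear hormone receptor genes, nhr-32, nhr-255, nhr-48, nhr-49 and nhr-119 had a region in the window. That was 5 of the 105 with any pooled summit there, or 4.76%, beside 1.91% of the 7975 genes. Of the 5, only nhr-32 had CACGTG there. nhr-49, a regulator of fat metabolism and fasting responses, had regions 110 bp and 368 bp upstream of transcript starts, at ranks 429 and 471, with ranks of 9735 and 239 in replicate 3. The nhr-255 region was 31 bp from a tRNA gene. E-box regions outside windows lay 1790 bp downstream of the start of nhr-46, 892 bp downstream of that of nhr-31 and 2149 bp upstream of nhr-34. In replicates 1, 2 and 3 the nhr-46 region had ranks of 1758, 128 and 2167. The nhr-31 region had 7624, 13375 and 2156 and was high in no replicate. The nhr-34 region had 4917 and 193 in replicates 2 and 3 and no region in replicate 1.

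In the autophagy list, epg-6, atg-2 and hlh-30 had a region in the window, and none of the 3 held CACGTG. They were 3 of 17 genes with any pooled summit there, or 17.6%, beside 1.91% of the 7975 genes. hlh-30 encodes the worm TFEB homologue. Its region was 178 bp upstream of a transcript start at rank 432, with ranks of 2411 and 109 in replicates 1 and 3. The epg-6 region at rank 290 had ranks of 225 and 348 in replicates 1 and 2, and the atg-2 region at rank 365 had 3108, 135 and 6689.

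In the glycolysis list, pck-2 and gpd-2 had a region in the window, both without CACGTG. They were 2 of 12 genes with any pooled summit there, or 16.7%, beside 1.91% of the 7975 genes. pck-2 encodes a phosphoenolpyruvate carboxykinase, an enzyme of gluconeogenesis, so the list is wider than glycolysis itself. Its region at rank 275 lay 94 bp downstream of the start with ranks of 1224 and 201 in replicates 1 and 3, and a further region 679 bp downstream at rank 231 had 11212, 966 and 185. The gpd-2 region, at rank 490, lay 180 bp upstream of the start, in the 3′ UTR of mai-1. It was not among the first 1000 of any replicate, with ranks of 10846, 4623 and 15315. Single genes of 3 more lists were hsp-1 at rank 211, gdh-1 at rank 259 and rpl-3 at rank 311, also without CACGTG. Of genes with any pooled summit in the window, hsp-1 was 1 of 16 heat shock protein genes, or 6.25%. By the same count gdh-1 was 1 of 17 amino acid and one-carbon genes, or 5.88%. For rpl-3 it was 1 of 45 ribosomal protein genes, or 2.22%, close to the 1.91% of the 7975 genes.

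The other list with a gene was that of further helix-loop-helix genes, through hlh-30 again, 1 of 6 with any pooled summit in the window. Lists with no gene in the window included those of fat synthesis and breakdown, of which 15 genes had any pooled summit there, lysosome genes with 17, insulin, AMPK and TOR genes with 16, collagens with 62 and trehalose, glycogen and pentose phosphate genes with 10. Marker lists for 6 tissues had none either, with 1 to 3 genes each that had any pooled summit. Beside a share of 1.91% over the 7975 genes, a count of 0 in lists of these sizes says little.

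Distance to the reproducible peaks was described without a test, since overlap with them entered the rule. Of the 304 summits, 63 lay within 10 kb of a reproducible summit, or 20.7%, against 4.47% of lower regions. Within 1 kb there were 21, against 0.461% of lower regions. The median distance was 172.1 kb, beside 245.8 kb for lower regions. CACGTG was found in 15 of 63 regions within 10 kb, or 23.8%, and in 57 of 241 beyond, or 23.7%, which did not differ past the threshold (odds ratio 1.01, adjusted Fisher's exact p = 1 over the 8 added tests; 95% intervals 13.98 to 36.2 and 18.4 to 29.5). The regions beyond 10 kb exceeded lower regions beyond 10 kb, at 23.7% against 4.04% (adjusted Fisher's exact p = 4.91e-26).

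**Figure D5:**
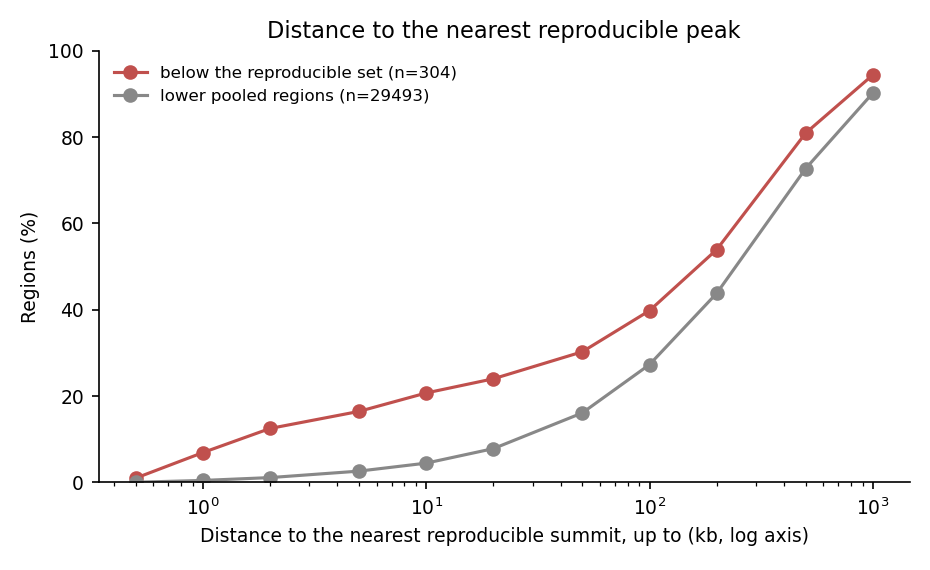
Cumulative share of regions (y axis, percent) whose summit lies within a given distance of the nearest reproducible summit (x axis, kb, log scale). At 10 kb the regions below the reproducible set reach 20.7% and the lower regions 4.47%.

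Regions also lay near each other. In all, 70 regions fell into 29 loci of 2 or more regions within 10 kb of each other, and 11 of these loci had a reproducible peak within 10 kb. A share of lower regions in such loci is not given here, so these counts have no base. The largest was at mdl-1 and R03E9.2 on chromosome X, with 6 regions over 16.3 kb and 10 reproducible peaks. mdl-1 encodes a Mad-like partner of Max. Its region 3111 bp upstream, at rank 206, held CACGTG, with ranks of 5473, 56 and 256, and the region 5858 bp downstream of its start, at rank 219 in an intron of abts-4, held CACATG alone. F26A3.4 had 4 regions, of which 2 held CACGTG, beside 3 reproducible peaks.

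The other 18 loci had no reproducible peak within 10 kb. The largest was sma-9, which encodes a Schnurri-like cofactor of BMP signalling, with 4 regions over 6.74 kb at ranks 217, 252, 346 and 414. The region at rank 217, in an intron, held CACGTG and had ranks of 83, 22541 and 5801 in replicates 1, 2 and 3. The region at rank 252, 131 bp upstream of a transcript start, had 16391, 1678 and 204. The region at rank 346 had 264, 2828 and 612, and that at rank 414 had 378, 15739 and 13178. Replicate 1 ranked 3 of the 4 regions high, replicate 2 ranked 0 and replicate 3 ranked 2. Pairs without a reproducible neighbour were also found at nhr-32, pck-2, nhr-49, pek-1, gpdh-2, ppfr-1, din-1 and tir-1, among others. daf-14, a Smad gene of the dauer pathway, had a single E-box region 1120 bp upstream of a transcript start at rank 407. It lay in an intron of the gene, with ranks of 166 and 270 in replicates 1 and 3.

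A different group lay at non-coding RNA genes. Of the 304 summits, 35 were within 200 bp of one, or 11.5% (8.15 to 15.7), against 1.17% of lower regions (odds ratio 10.99, adjusted Fisher's exact p = 2.14e-22). In reproducible peaks the share was lower, at 5.13% (odds ratio 2.41, adjusted Fisher's exact p = 0.0256 over the 8 added tests). They comprised 24 tRNA, 10 snoRNA and 1 snRNA genes. The 24 tRNA summits lay 8 to 53 bp outside the gene, with a median of 33 bp, and 1 of the 35 summits was inside a gene. CACGTG was present in 2 of the 35, those nearest to col-99 and upp-1.

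These regions had replicate ranks unlike those of the E-box regions, given here as a description. Replicate 1 ranked 23 of the 35 high, replicate 2 ranked 13 high and replicate 3 ranked 2 high. Their median rank was 611, 1150 and 9545, and 16 of the 35 had no region within 200 bp in replicate 3. Examples are the region near C04C11.25 at rank 216, with replicate ranks of 509, 267 and 8290, and that near inft-2 at rank 197, with 141 and 2432 in replicates 1 and 2. The 199 regions with neither CACGTG nor such a gene had medians of 869.5, 2006.5 and 1438, and 68 of them were high in replicate 3.

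Chromosome X held 86 of the 304 regions, or 28.3%, against 21% of lower regions (odds ratio 1.48, adjusted Fisher's exact p = 0.0044). Without neighbours, with 1 region kept per 10 kb cluster, the share was 26.2% and did not pass (adjusted Fisher's exact p = 0.072). Of the 72 regions with CACGTG, 18 were on chromosome X, a smaller share than in all 304, and this was not tested.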

How the data were processed

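The authors deposited lists of regions per replicate and pooled, which their file labels call peaks and background before thresholding by irreproducible discovery rate, and a list of reproducible peaks. Each region has a signal deposited by the authors, used here to rank within a list, and in the pooled list the authors also gave a −log10 q-value. Aligner, caller and threshold were not given in the sources used here. The control library was not analysed here. Lists in ce11 were read with the WBcel235 genome and Ensembl release 115, and coordinates are 1-based. The lists in ce10 served only as an alternative for counts.

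Summits within 200 bp were matched between lists. Gene lists and regions were chosen with earlier results of these data known. Named regions are those of best rank in each class: 12 with CACGTG in a promoter window, those high in 3 replicates, the first and last 5, up to 4 genes per list, 8 near reproducible peaks, and loci; other E-box regions were named after their values were seen. Fisher tests were adjusted within families of 9, 8 and 10, of which the splits by replicate support and rank are given without p, since rank chose the regions. Sequences on chromosome I are not shown. Alternatives varied windows, ranks, clusters, background, matching and replicates. For shares among the described regions, leaving out a replicate did not rebuild the pooled list. It kept only the regions high in another replicate, beside unchanged lower regions and reproducible peaks. The hexamer step was tried on sets of lower regions drawn at random, with CACGTG written into a share of their sequences or into none. Python 3.11.15 was used with SciPy 1.17.1, pandas 2.3.3, numpy 2.4.6 and matplotlib 3.10.9.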

Additional observations from a re-analysis of the deposited data

How the results depend on the processing

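The E-box share against lower regions and against reproducible peaks, the promoter share against lower regions and the place of the E-box stayed on the same side of the threshold and in the same direction under all alternatives run for them. The alternatives for the E-box share gave 14.4% to 34.4%. Those without a replicate kept only the regions high in another replicate. The pooled ranks and the lower regions were still built from every replicate. Without a test, the share in regions high in replicate 3 ran from 29.6% to 45.7% and that at the upper ranks from 29.6% to 38.8%, under alternatives chosen after the data were seen.

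The promoter share against reproducible peaks, which did not pass, changed direction with a window of 2000 bp upstream to 500 bp downstream (60.2% against 60%) and with replicate 1 left out (48.4% against 47.2%). Leaving out each replicate in turn, it ran from 41.4% to 48.4%. The E-box share by support in at least 2 replicates, a description, became 29.5% against 12.16% with the range extended to rank 1000 and 47.4% against 20.3% with the first 500 of each replicate. With the range ended at rank 350 it was 34.43% against 34.41%. The share at non-coding RNA genes did not pass when the summit had to lie inside the gene (0.329% against 0.224%, adjusted Fisher's exact p = 0.497). The chromosome X share did not pass with the range ended at rank 350 (26.6%, adjusted Fisher's exact p = 0.169), with 1 region per cluster (26.2%), or against the lower regions down to rank 5000 (28.3% against 23.8%, adjusted Fisher's exact p = 0.125). For these changes the cause was not tested.

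The count of 82 regions high in at least 2 replicates became 38 with the first 500 of each replicate and 138 with the first 2000. With a replicate left out, regions high in both of the others numbered from 15 without replicate 1 to 42 without replicate 2. The count of 63 regions within 10 kb became 38 within 2 kb, 31 of 154 down to rank 350 and 120 of 804 down to rank 1000. For the 16 named regions checked, 53 of 64 values of how many replicates ranked them high did not move with the match distance or the length of the top list, and the 4 regions high in 3 replicates were among those that moved. Unknown depth limits what absence from a replicate's list can show, and so does the shorter list of replicate 3.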
